A study of Mus musculus with 11 samples.

Results

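The CC chemokines that attract monocytes and related myeloid cells, together with the receptor gene Ccr2, were examined in pancreatic tumours grown in hosts with or without protein kinase N2 (PKN2). The 10 genes, taken by name from the count table, were the 9 ligand genes Ccl2, Ccl7, Ccl8, Ccl12, Ccl11, Ccl3, Ccl4, Ccl6 and Ccl9 and the receptor gene Ccr2, out of 54232 gene identifiers. All 10 were among the 16536 genes that passed the expression filter and were tested. Tumours were grown from 1000 TB32048 cells, a mouse pancreatic carcinoma line with intact Pkn2, placed in the pancreas of female C57BL/6 mice. KO hosts (6 tumours, replicates A to F) carried Rosa26-CreERT2 and 2 floxed Pkn2 alleles, and WT hosts (5 tumours, replicates A to E) carried Rosa26-CreERT2 and unfloxed Pkn2. Both groups had received tamoxifen, which activates the Cre recombinase. The Cre acts throughout the host and is not limited to fibroblasts, and every tumour came from a single carcinoma cell line.

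CC chemokines are small secreted proteins that bind to seven-transmembrane receptors on leukocytes and direct their migration. CCL2, the main ligand of CCR2, draws inflammatory monocytes out of the bone marrow and into tissue, where they can become macrophages. In pancreatic tumours, carcinoma cells, fibroblasts and macrophages can all be sources of these ligands. RNA levels of a ligand do not measure secreted protein.

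The 10 genes lie in 3 places in the mouse genome (GRCm38, GENCODE M21 annotation). Ccl2, Ccl7, Ccl11, Ccl12 and Ccl8 follow one another on the plus strand of chromosome 11, from 82035571 (the start of Ccl2) to 82116799 (the end of Ccl8). Ccl9, Ccl6 and Ccl3, on the minus strand, and Ccl4, on the plus strand, lie farther along the same chromosome, from 83572919 to 83664683. Ccr2 lies on chromosome 9 from 124101950 to 124113557. No exon of the 10 genes overlapped an exon of another annotated gene on either strand.

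Promoter sequences of RefSeq (GRCm38.p6, 250 bases before to 50 after the transcription start) were held for 6 of the 10 genes, Ccr2, Ccl12, Ccl8, Ccl9, Ccl6 and Ccl3. The promoters of Ccl2, Ccl4, Ccl7 and Ccl11 were not analysed here. Shown are 2 of the neighbouring pairs that varied together across the tumours, those for which both promoters were held. The neighbours Ccl3 with Ccl4 and Ccl7 with Ccl11 also varied together, but their promoters were not both held. Matches to the searched motifs are in capitals: the TATA box TATAAA, the AP-1 site TGANTCA, the PU.1 core GAGGAA and the NF-kB site, each on either strand (where 2 matches overlap, the capitals run together).
Ccl12 promoter, chr11:82101595-82101894 (plus strand): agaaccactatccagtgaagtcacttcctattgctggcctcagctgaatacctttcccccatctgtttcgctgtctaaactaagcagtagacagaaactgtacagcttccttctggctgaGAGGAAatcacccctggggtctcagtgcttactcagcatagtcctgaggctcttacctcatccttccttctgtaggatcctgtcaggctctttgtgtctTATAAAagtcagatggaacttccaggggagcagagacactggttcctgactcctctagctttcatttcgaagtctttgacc
Ccl8 promoter, chr11:82114935-82115234 (plus strand): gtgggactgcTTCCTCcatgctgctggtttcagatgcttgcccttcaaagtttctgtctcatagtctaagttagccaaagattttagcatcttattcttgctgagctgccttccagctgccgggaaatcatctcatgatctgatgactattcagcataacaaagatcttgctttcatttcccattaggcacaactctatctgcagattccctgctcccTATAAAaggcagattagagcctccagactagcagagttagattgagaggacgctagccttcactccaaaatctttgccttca
Ccl9 promoter, chr11:83578587-83578886 (minus strand): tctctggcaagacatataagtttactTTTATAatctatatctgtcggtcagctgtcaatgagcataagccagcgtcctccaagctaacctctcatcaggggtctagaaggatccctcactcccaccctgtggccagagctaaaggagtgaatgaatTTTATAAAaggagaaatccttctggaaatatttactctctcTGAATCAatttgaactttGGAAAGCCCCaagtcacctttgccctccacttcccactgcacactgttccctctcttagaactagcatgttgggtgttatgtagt
Ccl6 promoter, chr11:83593038-83593337 (minus strand): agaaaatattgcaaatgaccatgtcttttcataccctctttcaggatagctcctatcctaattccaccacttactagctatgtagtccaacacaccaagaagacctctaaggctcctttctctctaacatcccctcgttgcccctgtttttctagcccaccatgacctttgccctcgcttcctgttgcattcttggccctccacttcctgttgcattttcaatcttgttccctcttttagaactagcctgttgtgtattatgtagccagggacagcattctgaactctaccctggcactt
Ccl12 and Ccl8 each held a TATA box at a similar place, 31 and 32 bases before the start, and each held 1 PU.1 core. They were the most similar of the 15 promoter pairs, with 60% identical bases in a global alignment, against 51% to 57% in the other pairs. Ccl9 held 3 TATA box matches, 2 of which overlap, together with an AP-1 and an NF-kB match, whereas Ccl6, at 56.7% identity to Ccl9, held no match to any searched motif. A TATA box was found in 3 of the 6 promoters and in 13.6% of all 32851 promoters, a PU.1 core in 3 of 6 and in 28.3%, an AP-1 site in 1 of 6 and in 7.81%, and an NF-kB site in 1 of 6 and in 8.46%. The GATA motif AGATAA was found in the Ccr2 promoter alone among the 6, and in 11.2% of all promoters. The STAT6 motif (by name) was in none of the 6 and in 6.95% of all.

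Library facts that touch these genes are given first. WT replicate B had the fewest counts in total (16294128) and WT replicate E the most (31121422), and 3 counts, taken as the smallest visible level, corresponded to 0.0887 to 0.250 CPM (counts scaled to a common, TMM-adjusted library total). Pkn2 itself was at 96.6 ± 9.34 CPM (mean ± SD) over the 6 KO tumours and 96.7 ± 34.6 over the 5 WT tumours, and since the carcinoma cells keep the gene, this does not check the genotype labels. KO against WT, its difference on the log2 scale was -0.002 in all tumours (edgeR adjusted p = 0.996), -0.25 with an offset for exon length (adjusted p = 0.240), -0.28 without WT replicates A and B (adjusted p = 0.455) and -0.46 without A, B and C (SE 0.12, adjusted p = 0.131). WT replicates A, B and C stood apart from the other 8 tumours. Ribosomal RNA transcripts took 1.31%, 6.39% and 1.40% of their counts, against 0.241% to 0.765% elsewhere. Spearman's rho between a gene's exon length and its deviation from its mean level was -0.50, -0.45 and -0.17 in them, against 0.10 to 0.37 elsewhere, so that short transcripts were relatively abundant in these 3 libraries. The chemokine ligands are short (511 to 3045 exonic bases) and Ccr2 is long (6760 bases), and results are therefore given with and without these tumours.

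No ligand gene and no receptor gene passed the test between KO and WT tumours. With edgeR and Benjamini-Hochberg adjustment over all tested genes, 0 of 10 genes had an adjusted p under 0.05, where 0.0181% of all tested genes did. At an unadjusted p under 0.05 the count was also 0 of 10, where 24% of all genes reached that level (1417 higher and 2555 lower in KO). DESeq2 likewise called 0 of 10, against 8.06% of all genes, and 0 of 10 genes had groups that did not overlap in CPM, against 3.6% of all genes. Fold changes were negative for 8 genes and positive for Ccl2 and Ccr2, with a median log2 fold change (log2FC, KO against WT) of -0.23 against -0.03 over all tested genes.

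**Figure D1:**
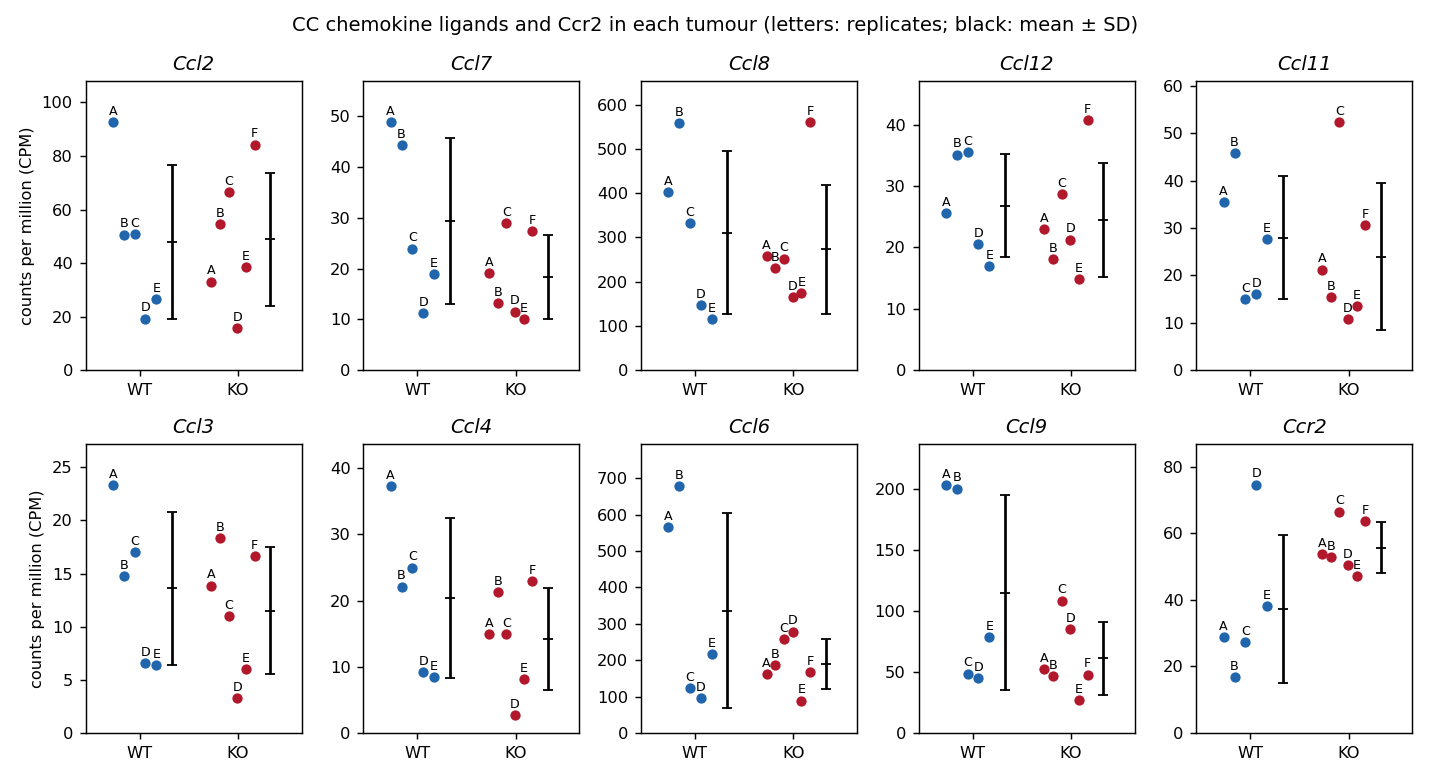
CPM (linear axis from 0) of each gene in each tumour, WT in blue and KO in red, with replicate letters and the group mean ± SD in black. KO and WT tumours overlapped for all 10 genes; WT replicates A and B stood above every KO tumour for Ccl6 and Ccl9, and 4 of 5 WT tumours stood below every KO tumour for Ccr2.

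The ligands of CCR2 come first. Ccl2 was at 92.6, 50.7, 50.7, 19.3 and 26.5 CPM in WT replicates A to E, and ranged in KO tumours from 15.9 to 84.3 with a median of 46.6. The groups covered nearly the same range, and the log2FC was 0.03 (SE 0.44, 95% interval -0.91 to 0.97, edgeR adjusted p = 0.975). The interval is wide enough to hold a change of nearly 2-fold in either direction. Ccl7, a second CCR2 ligand, was at 48.9, 44.2, 23.9, 11.2 and 18.9 CPM in WT and from 10.1 to 29.0 (median 16.1) in KO tumours. WT replicates A and B lay above all KO tumours and the other 3 WT tumours among them, and the log2FC was -0.68 (SE 0.39, edgeR adjusted p = 0.304). Ccl12, which in mice also acts through CCR2, had the smallest SE of the fold change among the ligands, and was at 24.5 ± 9.26 CPM (mean ± SD) over the 6 KO tumours and 26.8 ± 8.40 over the 5 WT tumours. Its log2FC was -0.13 (SE 0.28, 95% interval -0.72 to 0.47, edgeR adjusted p = 0.800).

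Ccl8, whose mouse protein is a ligand of CCR8, and Ccl11 (eotaxin), which attracts eosinophils through CCR3, share the gene cluster with Ccl2. Ccl8 was at 403, 558, 332, 147 and 115 CPM in WT replicates A to E. In KO tumours it was between 165 and 257 CPM in 5 tumours and at 561 CPM in replicate F. The highest values in the 2 genotypes were therefore nearly equal, and the log2FC was -0.19 (SE 0.42, edgeR adjusted p = 0.811). Ccl11 was at 35.5, 45.8, 15.04, 16.1 and 27.7 CPM in WT tumours and from 10.8 to 52.3 (median 18.4) in KO tumours, with a log2FC of -0.22 (SE 0.42, edgeR adjusted p = 0.771). The highest Ccl11 level of all 11 tumours was in KO replicate C.

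Ccl3 and Ccl4 encode macrophage inflammatory proteins, and Ccl6 and Ccl9 encode ligands of CCR1. Ccl3 was at 23.3, 14.8, 17.00, 6.58 and 6.38 CPM in WT and from 3.25 to 18.3 (median 12.4) in KO tumours, with a log2FC of -0.24 (SE 0.45, edgeR adjusted p = 0.771). Ccl4 was at 37.3, 22.1, 25.0, 9.16 and 8.42 CPM in WT and from 2.64 to 23.0 (median 14.9) in KO tumours, with a log2FC of -0.53 (SE 0.50, edgeR adjusted p = 0.534). Both genes were lowest in KO replicate D and highest in WT replicate A.

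Ccl6 and Ccl9 had the most negative fold changes of the 10 genes. Ccl6 was at 565, 679, 124, 96.3 and 217 CPM in WT replicates A to E, and from 88.6 to 278 (median 176) in KO tumours. Ccl9 was at 203, 201, 48.7, 44.9 and 78.4 CPM in WT, and from 27.0 to 109 (median 50.1) in KO tumours. For both, WT replicates A and B lay above every KO tumour while WT replicates C, D and E lay within the KO range. The log2FC was -0.83 for Ccl6 (SE 0.48, 95% interval -1.86 to 0.21, edgeR adjusted p = 0.303) and -0.91 for Ccl9 (SE 0.45, 95% interval -1.89 to 0.07, edgeR adjusted p = 0.237). With WT replicates A and B left out, these values became 0.38 (edgeR adjusted p = 0.666) and 0.09 (edgeR adjusted p = 0.939). The mean in KO tumours was thus not below that of the other 3 WT tumours on this scale.

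Ccr2, the receptor that marks inflammatory monocytes, had the highest fold change of the 10 genes. It was at 53.6, 52.7, 66.5, 50.5, 47.2 and 63.7 CPM in KO replicates A to F, and at 28.9, 16.9, 27.2, 74.6 and 38.2 CPM in WT replicates A to E. All KO tumours lay in a narrow band above 4 of the 5 WT tumours, but WT replicate D exceeded every KO tumour. The log2FC was 0.58 (SE 0.30, 95% interval -0.07 to 1.24, edgeR adjusted p = 0.255), and an exact two-sided permutation test on log2(CPM + 1) gave p = 0.0563, where the smallest p this design allows is 0.00433. In the other 9 genes the exact p lay between 0.225 and 0.918. In bulk tumours, fewer cells that carry a transcript and less RNA per cell cannot be told apart.

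The Ccr2 result turned on which WT tumours entered the fit. Without WT replicate D, the log2FC was 1.00 (SE 0.22, edgeR adjusted p = 0.0442), a call that 5.07% of all genes shared in that fit. Without WT replicates A and B it was 0.25 (SE 0.27, edgeR adjusted p = 0.709), and without A, B and C it was -0.01 (SE 0.24, edgeR adjusted p = 0.981). The WT side of that last fit was replicates D and E alone. D held more Ccr2 (74.6 CPM) than every KO tumour, and E held less (38.2 CPM). In that last fit 1 of the 10 genes, Ccl8, had an unadjusted p under 0.05 (log2FC 1.06, edgeR adjusted p = 0.277), where 17.2% of all tested genes did. In the fit without WT replicate E, 11.1% of all genes were called, and 0 of the 10 genes were.

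**Figure D2:**
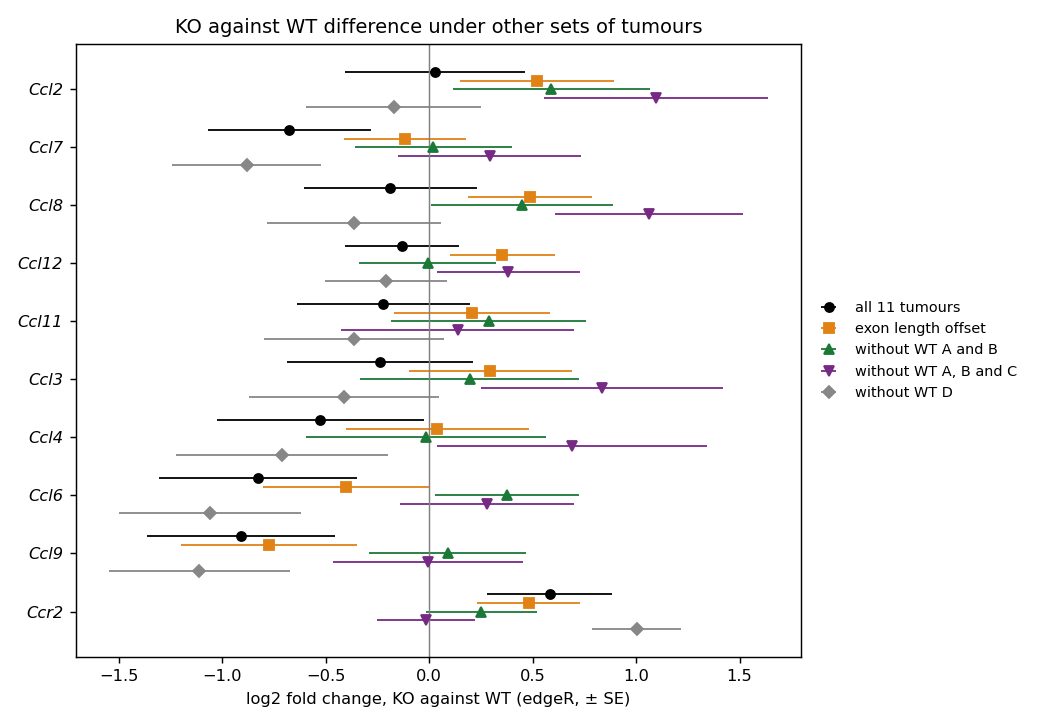
log2FC of each gene, KO against WT (horizontal axis, points with SE from edgeR), in all 11 tumours, with an offset for exon length, and without the named WT tumours. Without WT replicates A and B, 7 of 9 ligands had positive values, against 1 of 9 in all tumours. Ccr2 moved from 0.58 to 1.00 without WT replicate D and to -0.01 without A, B and C. That last fit kept WT replicates D and E only.

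Fold change across all genes followed exon length. The median log2FC was -0.52 over the 2384 tested genes with under 1500 exonic bases, -0.24 from 1500 to 3000 bases, 0.01 from 3000 to 6000 bases and 0.18 from 6000 bases upward. The 7 ligands under 1500 bases (Ccl2, Ccl3, Ccl4, Ccl7, Ccl8, Ccl11 and Ccl12) had a median of -0.22, which is less negative than that of genes of their length. Ccl6 (1795 bases, -0.83), Ccl9 (3045 bases, -0.91) and Ccr2 (6760 bases, 0.58) were each farther from 0 than the median of their length band. With each library's length trend removed by an offset, 6 of 9 ligands had positive values, with a median over the 9 of 0.21. In that fit Ccl6 was at -0.40, Ccl9 at -0.77 and Ccr2 at 0.48, and 0 of 10 genes passed the edgeR threshold. The part of transcript length and ribosomal RNA share in these differences was not tested beyond these fits.

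**Figure D3:**
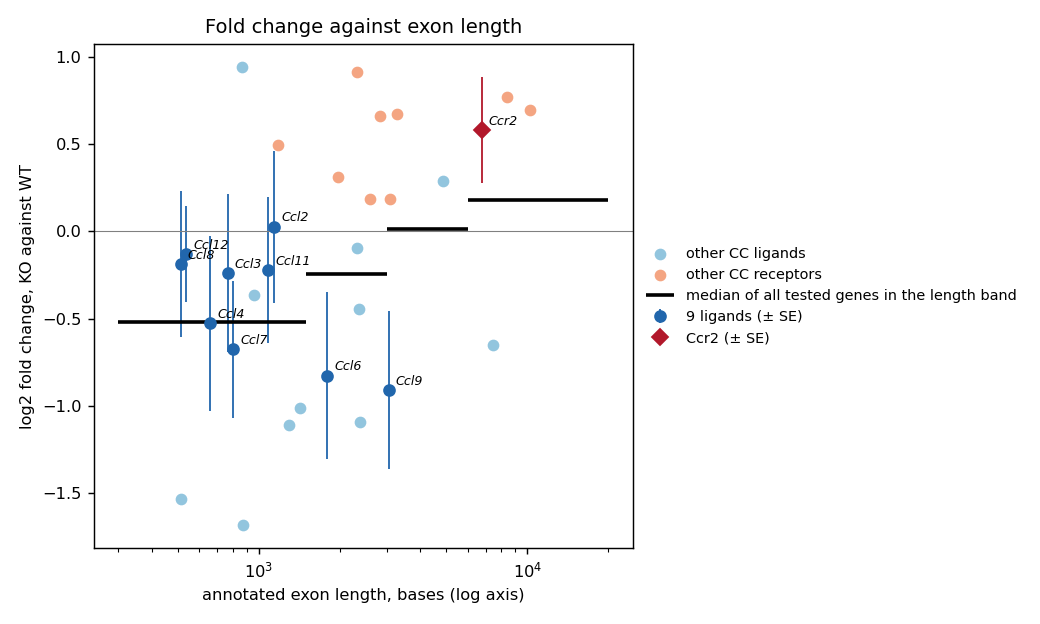
log2FC, KO against WT, against annotated exon length in bases (log axis), for the 9 ligands (blue, with SE), Ccr2 (red diamond, with SE), other CC ligands (pale blue) and other CC receptors (orange). Black bars are the medians of all tested genes in 4 length bands, which step from -0.52 in the shortest to 0.18 in the longest.

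Levels were compared between genes as CPM per kb of exon. Ccl8 was the most abundant ligand, at 534 ± 286 CPM per kb (mean ± SD) over the 6 KO tumours and 609 ± 360 over the 5 WT tumours, and Ccl6 came next, at 106 ± 38.6 and 187 ± 149. Ccl8 exceeded Ccl6, and Ccl6 exceeded Ccl12, in 11 of 11 tumours. Below these the order by mean level per kb was Ccl12, Ccl2, Ccl7, Ccl9, Ccl4, Ccl11, Ccl3 and Ccr2. The neighbours from Ccl12 to Ccl11 crossed in 3 to 6 of 11 tumours and did not differ beyond their spread. Ccl11 exceeded Ccl3, and Ccl3 exceeded Ccr2, in 9 of 11 tumours. Ccl8 made up a mean of 62.9% of summed ligand CPM per kb in KO tumours (54.4% to 74.4%) and 58.0% in WT tumours (45.3% to 68.4%). The sum over the 9 ligands was 830 ± 346 CPM per kb in KO and 1037 ± 592 in WT tumours, with overlapping ranges. Ccl9 has 5 annotated exons and a long annotated model, and its level per kb depends on that length.

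**Figure D4:**
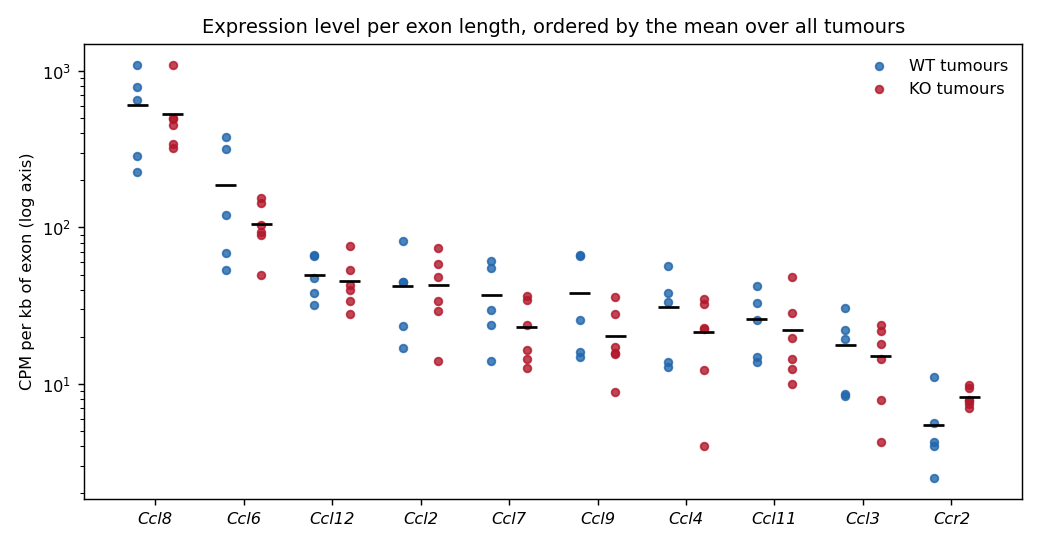
CPM per kb of exon (log axis) of each gene in each tumour, WT in blue and KO in red, with group means as black bars, ordered by the mean over all 11 tumours. Ccl8 is highest, at 534 in KO and 609 in WT tumours on average, and Ccr2 lowest, at 8.24 and 5.50.

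Some ligands that lie next to each other on chromosome 11 varied together across the 11 tumours, as correlations of log2(CPM + 1), and others less so. Ccl3 and Ccl4, 13.2 kb apart, had a Pearson r of 0.979 (Spearman's rho 0.936, and r 0.966 without the 2 tumours farthest from the median of Ccl3). In every pair the 2 tumours left out were those farthest from the median of 1 of its genes, so they may differ between pairs. Ccl6 and Ccl9, 9.25 kb apart, had an r of 0.960 (rho 0.900, r 0.884 without 2 tumours). Ccl8 and Ccl12, 11.8 kb apart, had an r of 0.846 (rho 0.836, r 0.709), and Ccl7 and Ccl11, 10.3 kb apart, an r of 0.833 (rho 0.809, r 0.789). The closest pair, Ccl2 and Ccl7, 8.26 kb apart, had an r of 0.719 (rho 0.709, r 0.582), Ccl11 and Ccl12, 38.9 kb apart, an r of 0.505 (rho 0.473, r 0.356), and Ccl6 and Ccl3, 54.8 kb apart, an r of 0.314 (rho 0.200, r 0.403). Distance was not the whole pattern, since Ccl2 had an r of 0.871 with Ccl4 in the other cluster (rho 0.827, r 0.786) and 0.543 with Ccl12 in its own (rho 0.536, r 0.589). All points share the library effects described above, and the pairs given were picked from the 45 possible pairs after their values were seen. Ccr2 had negative Pearson coefficients with all 9 ligands, from -0.25 (Ccl2) to -0.61 (Ccl6). Spearman's rho ran from -0.41 with Ccl9 to 0.036 with Ccl11. With the 2 tumours farthest from each ligand's own median left out, r was 0.042 with Ccl2, 0.063 with Ccl6 and 0.089 with Ccl9. It was between -0.47 and -0.11 with the other 6 ligands.

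**Figure D5:**
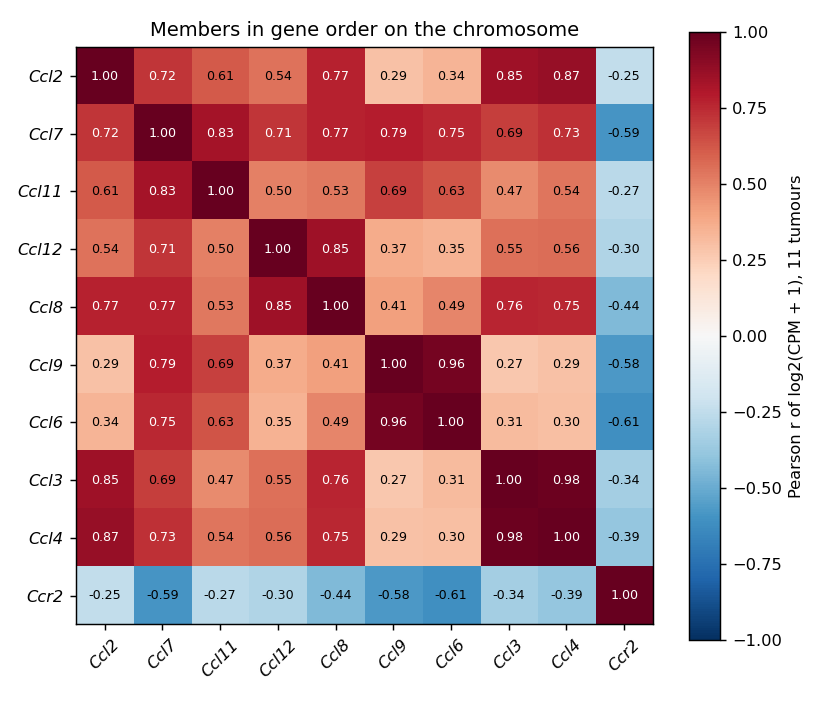
Pearson correlation of log2(CPM + 1) over 11 tumours for each pair of the 10 genes, in chromosomal order, from -1 (blue) to 1 (red). The neighbouring pairs Ccl3 with Ccl4 (0.98) and Ccl6 with Ccl9 (0.96) have the highest values, and the Ccr2 row is negative throughout on this measure.

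The tested genes most like Ccr2 over the 11 tumours, by Pearson r of log2 CPM, were Cracr2a (0.958), Arsb (0.953), Trmt2b (0.953), Zfp831 (0.946) and Map3k4 (0.942). Those most like Ccl6 were Ccl9 (0.960), Mpp6 (0.933), Tmem273 (0.933), Tbc1d10a (0.928) and Arg1 (0.920), the last of which encodes arginase, a marker of alternatively activated macrophages in mice. Those most like Ccl11 were Ndn (0.955), Tmed9 (0.954), Cdc45 (0.944), Il1b (0.921), which encodes the inflammatory cytokine interleukin-1 beta, and C430002N11Rik (0.911). Spearman's rho for these 15 pairs ran from 0.727 (Ccr2 with Map3k4) to 0.945 (Ccr2 with Cracr2a). Without the 2 tumours farthest from the median of Ccr2, Ccl6 or Ccl11, r ran from 0.802 (Ccl6 with Tbc1d10a) to 0.959 (Ccl11 with Tmed9). The genes were picked by their Pearson r over these same 11 tumours, so high values on the other measures are no separate support. All of them share the library effects described above.

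Among the other CC ligands, 0 of 11 passed the adjusted threshold, 9 of 11 had negative values and 4 (Ccl17, Ccl27a, Ccl25 and Ccl20) had an unadjusted p under 0.05 with a lower value in KO, with a median log2FC of -0.65. Ccl17, which attracts T cells through CCR4, was at 31.7, 49.6, 12.1, 17.04 and 12.4 CPM in WT and from 4.66 to 17.7 (median 7.07) in KO tumours (log2FC -1.53, SE 0.43, edgeR adjusted p = 0.0942). Only KO replicate D, at 17.7 CPM, lay above any WT tumour. Once WT replicates A, B and C were left out, 6 of the 11 were negative and 1 had an unadjusted p under 0.05. Of all tested genes, 17.2% reached that level in that fit and 24% in all tumours, in either direction. The 24% was made up of 1417 genes higher and 2555 lower of 16536. The 17.2% was not split by direction.

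The other CC receptor genes lay on the same side of 0 as Ccr2. All 9 tested receptors had positive values, with a median log2FC of 0.66, and 0 passed the adjusted threshold. Ccr1, a receptor of CCL3, CCL6 and CCL9, was at 46.6 to 104 CPM in KO and 41.6 to 54.1 CPM in WT tumours, with a log2FC of 0.66 (SE 0.21, edgeR adjusted p = 0.1098). In the fit without WT replicates A, B and C, 7 of the 9 receptors were positive, with a median of 0.46, and 0 had an unadjusted p under 0.05.

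Of the other lists of this pathway, the 4 atypical receptors, which bind chemokines without classical signalling, had 0 genes at an unadjusted p under 0.05, with Ackr3 nearest (log2FC 0.37, SE 0.33, edgeR adjusted p = 0.500). Of 13 genes of other monocyte attractant and growth axes, 5 (Csf1r, Csf1, Cx3cr1, Csf2rb and Cxcr4) were higher and 1 (Csf2) lower at an unadjusted p under 0.05. In the fit without WT replicates A, B and C it was 1 higher and 0 lower of 13. Of all tested genes, 17.2% reached that level in that fit and 24% in all tumours, in either direction. The 24% was made up of 1417 genes higher and 2555 lower of 16536. Csf1r, the receptor on which macrophages depend, was nearest the threshold, at 237 to 426 CPM in KO and 97.1 to 260 CPM in WT tumours (log2FC 0.83, SE 0.24, edgeR adjusted p = 0.0967). Of 17 receptor signalling genes, 5 (Plcb2, Pik3cg, Ptk2b, Dock2 and Arrb1) were higher and 0 lower at an unadjusted p under 0.05. That level was reached by 24% of all tested genes, 1417 higher and 2555 lower of 16536. With WT replicates A, B and C left out it was 1 higher and 1 lower of the 17. The smallest p was that of Plcb2, a phospholipase of leukocyte chemokine signalling (log2FC 0.71, SE 0.21, edgeR adjusted p = 0.103). Of 14 tested inducers and brakes of chemokine transcription, 2 (Stat6 and Tlr4) were higher and 0 lower at an unadjusted p under 0.05. With WT replicates A, B and C left out, 2 were higher and 1 lower of 15 tested. The shares of all tested genes given above, 24% in all tumours and 17.2% in that fit, apply here too. Stat6, which mediates interleukin-4 signals, had no overlap between groups, at 138 to 171 CPM in KO and 69.7 to 119 CPM in WT tumours (log2FC 0.56, SE 0.15, edgeR adjusted p = 0.0928). Groups also did not overlap for 3.6% of all tested genes.

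Marker genes of the cells that carry these receptors are given beside Ccr2. Of 8 monocyte markers, 7, among them Ly6c2, Chil3, F13a1, Fcgr1, Spn and Itgam, had a higher value in KO at an unadjusted p under 0.05 and 0 passed the adjusted threshold, with a median log2FC of 1.10. The eighth, Plac8, was at 527 ± 126 CPM (mean ± SD) over the 6 KO tumours and 859 ± 520 over the 5 WT tumours (log2FC -0.70, SE 0.40, edgeR adjusted p = 0.294). On average it made up most of the summed CPM of the 8. The summed marker level was 678 to 1177 CPM in KO and 421 to 1559 CPM in WT tumours, and no monocyte marker was at 0. Ly6c2, a surface marker of inflammatory monocytes, was at 19.9 to 63.3 CPM in KO and 6.54 to 17.3 CPM in WT tumours, with a log2FC of 1.87 (SE 0.33, edgeR adjusted p = 0.0663). Chil3, a secreted lectin of myeloid cells, was at 21.04 to 441 CPM in KO and 4.54 to 15.5 CPM in WT tumours, with a log2FC of 4.01 (SE 0.66, edgeR adjusted p = 0.0607). WT replicate D, the tumour with the most Ccr2, had 10.5 CPM of Ly6c2 and 4.54 CPM of Chil3, within the WT range for both. With WT replicates A, B and C left out, 5 of the 8 monocyte markers had a higher value at an unadjusted p under 0.05, and Ccr2 was at -0.01. Only WT replicates D and E remained in that fit, D being the tumour with the most Ccr2. Of all tested genes, 17.2% reached that level in that fit and 24% in all tumours, in either direction. The 24% was made up of 1417 genes higher and 2555 lower of 16536.

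Of 10 macrophage markers, all had positive values and 4, among them Mertk, Adgre1 and Cd163, were higher at an unadjusted p under 0.05, with summed levels of 1883 to 3539 CPM in KO and 1365 to 2743 CPM in WT tumours. Mertk, a receptor for the uptake of dying cells, was nearest the threshold (log2FC 0.72, SE 0.21, edgeR adjusted p = 0.0991). With WT replicates A, B and C left out, 3 of the 10 were higher at that level. Of all tested genes, 17.2% reached it in that fit and 24% in all tumours, in either direction. The 24% was made up of 1417 genes higher and 2555 lower of 16536. C1qa, a complement gene of macrophages, followed Ccl8 over the tumours, with an r of 0.935 (rho 0.945, r 0.909 without 2 tumours). It was highest in KO replicate F, at 1102 CPM, the tumour in which Ccl8 stood apart. This pair was picked after its values were seen.

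Other leukocyte markers are given for the same reason. At an unadjusted p under 0.05, 6 of 8 neutrophil, 3 of 6 eosinophil, 2 of 6 mast cell and basophil and 5 of 5 B cell markers had higher values in KO, as did 0 of 7 dendritic cell and 0 of 7 T and NK cell markers, and 0 of any list passed the adjusted threshold. The summed level was 287 to 2957 CPM in KO and 161 to 1070 CPM in WT tumours for the neutrophil list, 16.8 to 91.1 and 17.6 to 32.6 for the eosinophil list, and 33.6 to 102 and 6.26 to 30.3 for the B cell list. Epx and Ear1 of the eosinophil list had 0 counts in at least 1 tumour. With WT replicates A, B and C left out, the counts were 6 of 8, 3 of 6, 3 of 6 and 4 of 5. In that fit 17.2% of all tested genes reached that level in either direction, against 24% in all tumours. The 24% was made up of 1417 genes higher and 2555 lower of 16536. Mmp8, a neutrophil collagenase, was at 4.92 to 38.3 CPM in KO and 1.53 to 4.58 CPM in WT tumours (log2FC 3.11, SE 0.51, edgeR adjusted p = 0.0607). The B cell genes Cd79a, Pax5 and Cd79b had no overlap between groups, with log2FC values of 2.62, 2.47 and 1.92 (edgeR adjusted p = 0.0663 for each). Groups did not overlap for 3.6% of all tested genes. Epx, eosinophil peroxidase, was at 0.121 to 10.6 CPM in KO tumours and between 0 counts in WT replicate D and 0.491 CPM in WT replicate C (edgeR adjusted p = 0.0786). The 0 counts in WT replicate D allow up to 0.117 CPM. Cpa3 of mast cells (log2FC 1.34, edgeR adjusted p = 0.118), Itgax of dendritic cells (0.48, edgeR adjusted p = 0.260) and Klrb1c of NK cells (0.63, edgeR adjusted p = 0.261) were nearest the threshold in their lists.

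The carcinoma and stromal markers were the remaining background. Of 6 epithelial markers, all had negative values and 3 (Krt19, Krt18 and Epcam) were lower in KO at an unadjusted p under 0.05. Krt19, a ductal keratin, was at 245 to 831 CPM in KO and 414 to 1368 CPM in WT tumours (log2FC -0.92, SE 0.33, edgeR adjusted p = 0.128). Of 3 tested acinar genes, Cela1 was lower at an unadjusted p under 0.05 (log2FC -1.96, edgeR adjusted p = 0.0938). No fibroblast or endothelial marker reached that level; the nearest were Col3a1 (log2FC 0.78, edgeR adjusted p = 0.228) and Pecam1 (0.38, edgeR adjusted p = 0.314). With WT replicates A, B and C left out, 1 of 6 epithelial and 1 of 6 acinar genes were lower at that level. Of all tested genes, 17.2% reached it in that fit and 24% in all tumours, in either direction. The 24% was made up of 1417 genes higher and 2555 lower of 16536. The part of these cell type markers in the values of the ligands and of Ccr2 was not tested.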

How the data were processed

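Bulk RNA was sequenced from 6 KO and 5 WT tumours, grouped by genotype and replicate letter as the sample titles give them. Per the submitters' processing notes and the study's methods, bcl2fastq (2.19), Trimmomatic, HISAT2 (2.1.0, genome mm10) and HTSeq (0.11.2) were used, on libraries from a directional kit. The authors deposited raw counts per gene, which were used here, and a table of normalised values, which was not used. Of 54232 identifiers, 54079 matched GENCODE M21. Reads shared by near-identical genes may be lost or split in counting. Nothing in the labels gives a sequencing batch.

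Counts were tested with the edgeR quasi-likelihood F-test (edgeR 4.0.16, R 4.3.3) with TMM scaling, filterByExpr, no covariates, two-sided, and Benjamini-Hochberg adjustment over 16536 genes at 0.05. Standard errors are the absolute log2 fold change over the square root of F, with 95% intervals from the t distribution of the fit. Single genes were also tested by exact permutation over 462 splits on log2(CPM + 1) (SciPy 1.17.1). Promoters were aligned with Biopython 1.88. The main edgeR fit and DESeq2 were run on simulated data, and the other alternative fits were not. DESeq2 first gave more false calls on the simulated data than the limit set for it, and that limit was then raised. P-values set the KO against WT difference against the spread between tumours within the groups, and count floors cover counting error only.

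The genes and lists were chosen with earlier results of these data known. The named genes are the 10 genes, Pkn2, from each other list the genes past the adjusted threshold or else up to 3 with non-overlapping CPM, or else the gene of smallest p, and the 5 genes most correlated with each of Ccr2, Ccl6 and Ccl11 (mean of at least 1 CPM); C1qa, Plac8 and the other list genes given by name only were added after their values were seen. Some genes of these lists are not reported here. Alternatives were DESeq2 (1.42.0), its size factors, no count filter or at least 10 counts in every tumour, an exon length offset, the ribosomal RNA share as a covariate, the replicate letter as a block, each tumour left out in turn, and WT replicates A and B left out. Leaving out WT replicates A, B and C was added after the data were seen. Same-lettered tumours come from different animals, and their deviations correlated at between -0.13 and 0.11, so the letters were not treated as pairs.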

Additional observations from a re-analysis of the deposited data

Results flagged for a closer look

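Ccl8 in KO replicate F stood apart from the other KO tumours. Its level was 561 CPM, against 165 to 257 CPM in the other 5 KO tumours, and the gap to the nearest tumour took 0.639 of the group's whole range on the log2(CPM + 1) scale. In all, 20 groups (10 genes in 2 genotypes) were examined, and chance marks about 1 of 20. In the same tumour C1qa was at 1102 CPM and Ccl12 at 40.8 CPM, the highest KO values of both. Without KO replicate F the log2 fold change of Ccl8 was -0.53.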

How the results depend on the processing

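Whether the ligands were lower in KO tumours depended on the WT tumours used. The median log2 fold change of the 10 genes was -0.23, and went to 0.25 with the exon length offset, 0.06 with the ribosomal RNA covariate, 0.22 without WT replicates A and B, and 0.34 without A, B and C. Values that changed sign with the length offset were Ccl3 0.30, Ccl4 0.041, Ccl8 0.49, Ccl11 0.21 and Ccl12 0.35. With the ribosomal RNA covariate they were Ccl3 0.070, Ccl8 0.61, Ccl11 0.055 and Ccl12 0.21. Without WT replicates A and B they were Ccl3 0.20, Ccl6 0.38, Ccl7 0.021, Ccl8 0.45, Ccl9 0.091 and Ccl11 0.29. Without A, B and C they were Ccl3 0.84, Ccl4 0.69, Ccl6 0.28, Ccl7 0.29, Ccl8 1.06, Ccl11 0.14, Ccl12 0.38 and Ccr2 -0.015, and 1 of the 10 genes was higher at an unadjusted p under 0.05. The causes were not tested.

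With the replicate block, Ccl2 went to -0.13, 1 of the 10 genes was lower at an unadjusted p under 0.05, and 1 gene of the other lists was called higher at the adjusted threshold. Leaving out 1 tumour changed the sign of Ccl2 (range -0.20 to 0.41), Ccl3 (-0.42 to 0.048), Ccl8 (-0.53 to 0.13) and Ccl11 (-0.62 to 0.030). The tumours were KO replicates B (-0.0066), C (-0.10) and F (-0.20) and WT replicates D (-0.17) and E (-0.12) for Ccl2, WT replicate A for Ccl3 (0.048), and WT replicate B for Ccl8 (0.13) and Ccl11 (0.030). Over the same fits 0 to 1 of the 10 genes were higher and 0 lower at the adjusted threshold, and 0 to 1 higher and 0 to 3 lower at the unadjusted one, the highest numbers all without WT replicate D. For these fits and the replicate block, the share of all tested genes at the unadjusted level is not given. The unadjusted counts are therefore not read as a result about the 10 genes. 

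Of 147 tested genes of the other lists, 0 were called, with 41 higher and 9 lower at an unadjusted p under 0.05. DESeq2 called 22 higher and 3 lower, the length offset 7 higher, and the fit with no count filter 7 higher. With 1 tumour left out, 0 to 22 were called higher and 0 to 2 lower, with 22 and 2 without WT replicate E, 10 and 2 without WT replicate D, and 4 and 0 without KO replicate F. At the unadjusted level, 4 were lower with the length offset and 5 without WT replicates A, B and C. With 11 tumours, intervals of about 1 on either side of a log2 fold change limit what could be seen for most ligands.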
